A study of Mus musculus with 10 samples.

Results

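The genes described here are 46 mouse genes of fatty acid use, from the uptake of fatty acids into the muscle fiber to their activation, transport into mitochondria, oxidation and storage, and to the use of ketone bodies. They were taken from a fixed list, which was chosen with earlier results of these data known. All 46 were found among the 16112 genes of the count tables after Ensembl identifiers were matched to symbols with a GRCm38 annotation. Transcript levels were measured by RNA sequencing of total RNA in 3 whole muscles of wild-type mice. EDL (extensor digitorum longus, 3 libraries) and psoas (3 libraries) are muscles classed as fast, and soleus (4 libraries) is a muscle classed as slow. All 10 libraries came from homozygous wild-type animals of the B6C3Fe a/a-Ttnmdm/J strain, which carries a mutation of the titin gene Ttn in its mutant mice, aged 32 to 54 days. No treatment is named for them. The methods state that the mice had also served another study, whose procedures are not given in the sources used here. The labels gave 5 male and 4 female libraries and no sex for soleus 3. They held 7 animal codes, of which 3 were shared by 2 libraries each (psoas 1 with soleus 1, EDL 3 with soleus 2, and psoas 3 with soleus 4), so libraries of different muscles are not all independent, while those of 1 muscle carry separate codes. The methods name fewer mice than there are codes. EDL 1, EDL 2, psoas 1 and psoas 2 were male libraries whose reads had been quality-trimmed, whereas EDL 3 and psoas 3 were female and untrimmed, and these factors cannot be told apart within those muscles. The study used 3 sequencing runs, and the run of each library is not given in the sources used here. A run proxy built from read trimming and age stands in for it below, and may not follow the runs. In this proxy soleus 1 and soleus 3 form a level of their own.

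A resting or slowly contracting muscle takes most of its energy from fatty acids. Lipoprotein lipase frees them from triglyceride in the blood, membrane and cytosolic carriers bring them into the fiber, and synthetases attach coenzyme A. The acyl group is then handed to carnitine, carried into mitochondria and shortened by beta-oxidation, or it is esterified and kept in lipid droplets. Malonyl-CoA restrains the carnitine step, and slow oxidative muscle is known for a high capacity along this whole route.

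Levels are given as FPKM, which here means CPM after TMM normalization divided by the summed exon length in kilobases. Differences between muscles are log2 fold changes. They come from 1 fit over all 10 libraries with the quasi-likelihood method of edgeR, and p-values were adjusted over all 16112 genes. A gene was called changed at an adjusted p under 0.01 with a fold change over 2. Libraries held 12737971 to 50431713 counts, and the members had between 10 and 54968 counts in a library. The labelled tissues carried their fiber markers: the slow myosin gene Myh7 measured 793 to 1575 FPKM in soleus against 0.875 to 13.6 in EDL and 0.371 to 1.16 in psoas, and the fast gene Myh4 measured 18.8 to 281, 6379 to 9123 and 8325 to 9419 FPKM. The fast genes Myh2 and Myh1 were also expressed in soleus. Myh2 measured 1329 to 1625 FPKM in soleus, 281 to 438 in EDL and 315 to 884 in psoas. Myh1 measured 505 to 1648, 1329 to 1660 and 1230 to 2689 FPKM in the same order. EDL 1 and EDL 2 stood apart in composition, with 11.2% and 14.4% of their counts in 4 genes of 7S RNAs (Rn7s1, Rn7s2, Rn7s6 and Rn7sk), against 1.61% to 3.01% in the other 8 libraries. In whole muscle, more cells of a type and more RNA per cell cannot be told apart.

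The fatty acid genes as a group were highest in soleus. Between soleus and EDL, 30 of the 46 members were called higher in soleus and 0 lower, where 5.77% of all genes were called in either direction, 3.59% higher and 2.18% lower. The median log2 fold change of the members was 1.47, beside -0.05 for all genes tested. Between soleus and psoas, 7 members were called, all higher in soleus (Cd36, Lpl, Acadm, Bdh1, Dgat2, Lipe and Acot2), beside 5.69% of all genes in either direction (2.99% higher and 2.71% lower), and the medians were 0.79 and 0.02. Between psoas and EDL, 2 members were called, Acsl1 and Acacb, both higher in psoas, beside 2.11% of all genes in either direction (0.540% higher and 1.57% lower). There the member median was 0.59 and that of all genes 0.01.

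At an adjusted p under 0.05 with no limit on the fold, 35 members were higher in soleus than in EDL, 25 were higher in soleus than in psoas and 10 were higher in psoas than in EDL. The shares of all genes higher by that rule were 9.79%, 7.75% and 4.76%. By the same rule 0 members were lower in each of the 3 comparisons, beside 8.80%, 6.78% and 6.34% of all genes. All soleus libraries lay above all EDL libraries for 36 members (15.2% of all genes), and above all psoas libraries for 33 (13.9%). All psoas libraries lay above all EDL libraries for 15 members (13.4% of all genes). Mean levels had the order EDL, psoas, soleus for 39 of the 46 members, beside 19.6% of all genes. For 10 members every EDL library lay under every psoas library and every psoas library under every soleus library (1.28% of all genes): Lpl, Acsl1, Cpt2, Acadl, Acads, Hadh, Etfdh, Dgat2, Plin5 and Acot2. The opposite separation was found for 0 members in each comparison, beside 14.3%, 11.9% and 16.3% of all genes. The 3 comparisons share libraries, so these counts are not independent of each other.

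**Figure D1:**
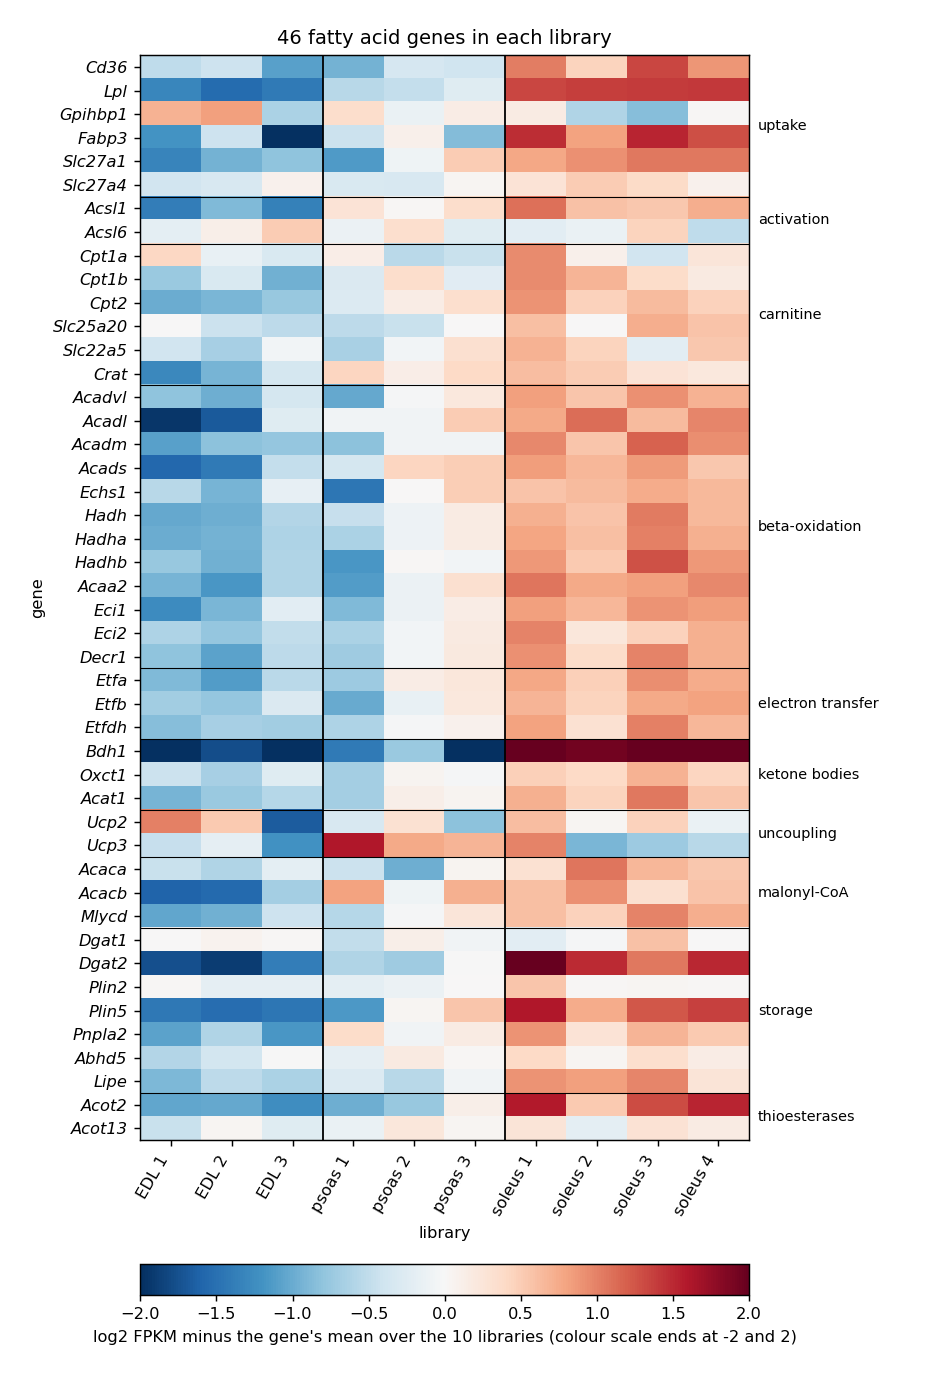
Each row is 1 of the 46 fatty acid genes, grouped by role, and each column 1 of the 10 libraries. Colour gives log2 FPKM minus the mean of that gene over the 10 libraries, with the scale ending at -2 and 2. The soleus columns are above the gene mean for most rows, and the EDL columns below it. Gpihbp1, Acsl6, Ucp2, Ucp3 and Dgat1 are rows without that pattern.

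Summed over the 46 members, FPKM measured 977, 1078 and 1064 in the 3 EDL libraries, 1181, 1742 and 1741 in the 3 psoas libraries and 3504, 2689.8, 3701 and 3241 in the 4 soleus libraries. The soleus values did not overlap with those of the other 2 muscles, and on this scale, unlike the other 2 computed, the lowest psoas library lay just above the highest EDL library. The ratio of means was 3.16 for soleus over EDL and 1.5 for psoas over EDL. On a TPM scale, in which the 7S RNA genes held 42.6% and 44.6% of the total in EDL 1 and EDL 2 and 9.27% to 15.5% in the other libraries, the ratios were 3.98 and 1.51. As a plain share of counts they were 3.13 and 1.17. On both of these scales psoas and EDL overlapped: on the TPM scale EDL 3 had 2243 against 1375 in psoas 1 and 2194 in psoas 2, and as a share of counts EDL 3 had 0.431% against 0.289% in psoas 1 and 0.389% in psoas 2. Summed FPKM of 8 muscle fiber genes (Acta1, Ckm, Myh1, Myh2, Myh4, Myh7, Tnnt1 and Tnnt3) was also higher in psoas than in EDL. Its mean was 26165 in EDL (21585 to 34368), 37781 in psoas (34321 to 41512) and 23411 in soleus (22797 to 24406). A difference between these 2 lists was not tested.

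Of the 6 genes of fatty acid supply to the fiber, 4 were called higher in soleus than in EDL, with the exception of Gpihbp1 and Slc27a4, and Lpl and Cd36 were also higher than in psoas. Lpl (ENSMUSG00000015568, chr8:68880491-68907448) encodes lipoprotein lipase, which frees fatty acids from circulating triglyceride. It measured 24.3, 20.8 and 22.6 FPKM in EDL, 40.9, 43.3 and 50.7 in psoas and 152, 157, 158 and 161 in soleus. The 3 muscles formed separate bands, and the 4 soleus libraries lay closer together than those of most members. The log2 fold change was 2.8 ± 0.19 (SE) for soleus against EDL (adjusted p = 2.17e-05) and 1.8 ± 0.18 for soleus against psoas (adjusted p = 0.000144), and both calls held under each of 17 alternative settings (7 other fits and 10 that each left out a library). For psoas against EDL it was 1.0 ± 0.18 (adjusted p = 0.00866), a 1.99-fold difference that stayed just under the 2-fold limit. Gpihbp1, the capillary protein that carries the lipase to the vessel lumen, had 12.2, 13.3 and 4.84 FPKM in EDL, 9.64, 6.88 and 8.32 in psoas and 8.47, 4.94, 4.15 and 7.67 in soleus. These ranges overlapped, and its soleus against EDL value of -0.69 ± 0.33 missed the threshold (adjusted p = 0.164, 95% interval -1.42 to 0.041).

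Cd36, a fatty acid receptor of the fiber membrane, measured 86.9, 93.2 and 58.5 FPKM in EDL, 64.2, 98.6 and 93.7 in psoas and 252, 168, 313 and 227 in soleus. EDL and psoas covered the same range and every soleus library lay above both. Its log2 fold change was 1.59 ± 0.27 against EDL (adjusted p = 0.00275) and 1.49 ± 0.27 against psoas (adjusted p = 0.00372), while psoas against EDL gave 0.10 with a 95% interval of -0.50 to 0.70. Fabp3, the cytosolic fatty acid binding protein of muscle, was the member with the highest level in each of the 3 muscles, at 135, 230.4 and 63.1 FPKM in EDL, 229, 330.1 and 169 in psoas and 853, 537, 887 and 752 in soleus. EDL and psoas overlapped, with EDL 3 lowest of all. Fabp3 was called against EDL (2.41 ± 0.41, adjusted p = 0.00292), and against psoas it passed 0.05 but not 0.01 (1.64 ± 0.40, adjusted p = 0.0175). Slc27a1, a fatty acid transport protein with synthetase activity, ranged over 3.17 to 4.52 FPKM in EDL, 3.61 to 11.2 in psoas and 13.5 to 16.4 in soleus, and was called in soleus against EDL (1.96 ± 0.32, adjusted p = 0.00211). Its relative Slc27a4 ranged over 1.35 to 1.87, 1.41 to 1.81 and 1.87 to 2.5 FPKM, and was not called (0.52 ± 0.19 against EDL, adjusted p = 0.0753).

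**Figure D2:**
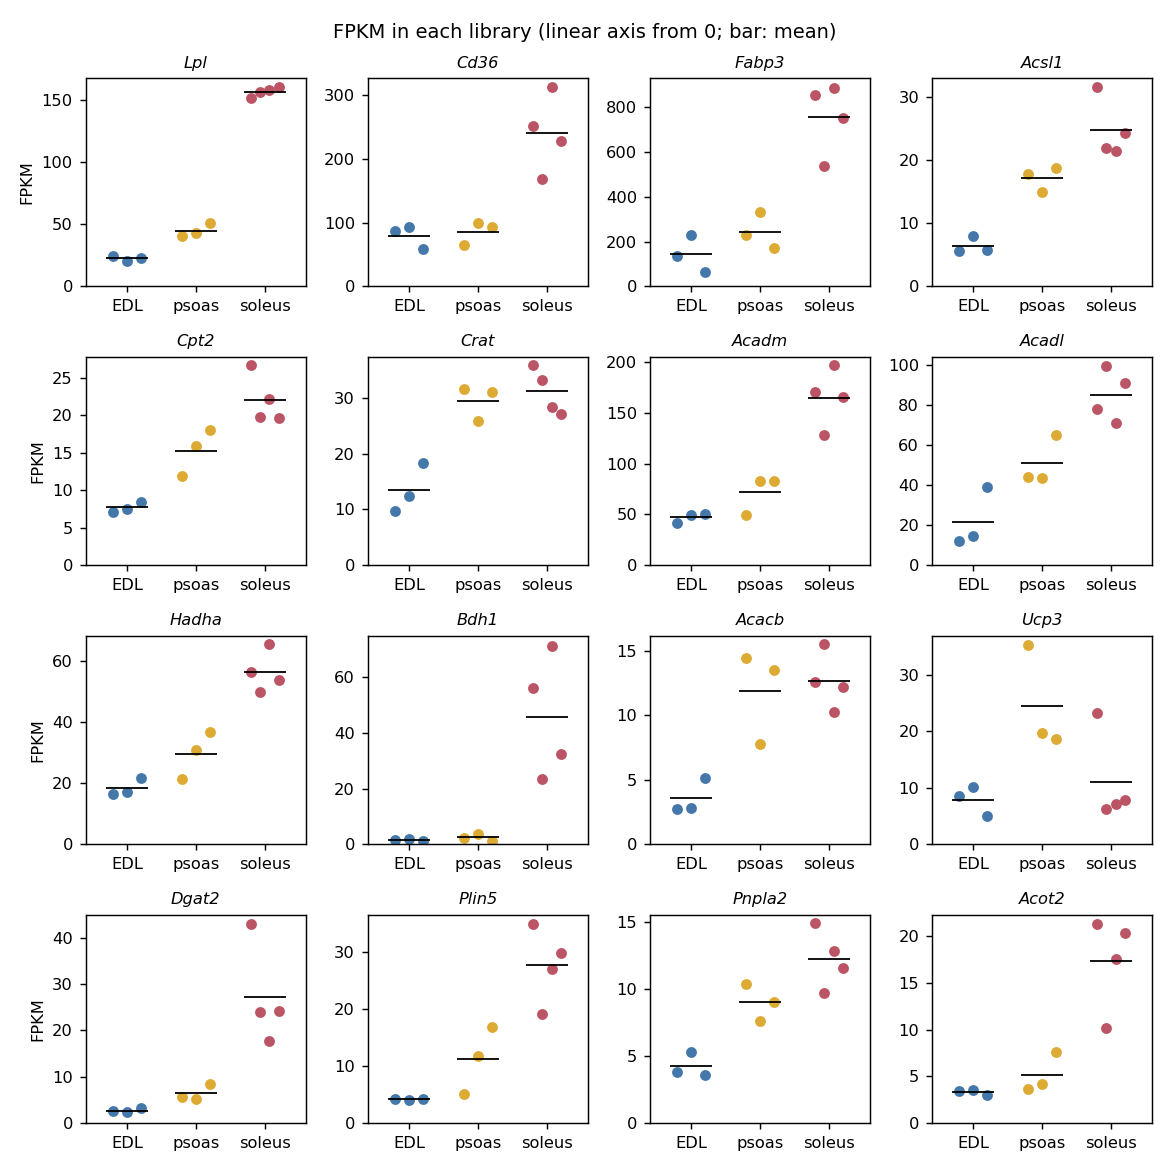
Each point is the FPKM of 1 library for 16 of the genes, by muscle, on a linear axis from 0, and the bar is the mean of the muscle. Lpl steps up from EDL to psoas to soleus, Cd36 and Bdh1 are high in soleus alone, Crat and Acacb overlap between psoas and soleus, and for Ucp3 the psoas libraries and soleus 1 stand above the rest.

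Activation to acyl-CoA showed 1 synthetase that was higher in both psoas and soleus and 1 that was not called in any comparison. Acsl1, the main long-chain acyl-CoA synthetase of muscle mitochondria, measured 5.63, 7.97 and 5.73 FPKM in EDL, 17.7, 15 and 18.7 in psoas and 31.6, 21.9, 21.3 and 24.3 in soleus. The 3 muscles did not overlap, and psoas lay nearer to soleus. It was called in psoas against EDL (1.41 ± 0.21, adjusted p = 0.00389) and in soleus against EDL (1.94 ± 0.21, adjusted p = 0.000201), but not between soleus and psoas (0.53 ± 0.20, adjusted p = 0.102). The psoas call was lost without EDL 1, psoas 1, psoas 2 or psoas 3, with adjusted p between 0.0133 and 0.0257. Acsl6, another synthetase of the family, had 1.5 to 2.44 FPKM in EDL, 1.45 to 2.15 in psoas and 1.2 to 2.32 in soleus, and its 3 log2 fold changes lay between -0.24 and -0.081.

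Of the 6 carnitine genes, 2 were called between soleus and EDL. Cpt2, the carnitine palmitoyltransferase of the inner mitochondrial membrane, had 7.17, 7.57 and 8.45 FPKM in EDL, 11.9, 15.9 and 18 in psoas and 26.8, 19.8, 22.2 and 19.7 in soleus. All 3 groups were separate (1.52 ± 0.18 for soleus against EDL, adjusted p = 0.000397), and psoas against EDL gave 0.98 ± 0.19 with an adjusted p of 0.0113. Crat, the carnitine acetyltransferase that buffers acetyl-CoA, measured 9.63, 12.4 and 18.3 FPKM in EDL, 31.5, 25.8 and 31 in psoas and 35.9, 33.2, 28.3 and 27 in soleus. Psoas and soleus covered the same range (log2 difference 0.08, 95% interval -0.39 to 0.55), and both lay above EDL. Crat was called in soleus against EDL (1.21 ± 0.22, adjusted p = 0.00432), while psoas against EDL had a similar size but missed 0.01 (1.13 ± 0.23, adjusted p = 0.0142).

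Slc25a20, the carnitine and acylcarnitine carrier, ranged over 12.2 to 17.8 FPKM in EDL, 12.3 to 17.7 in psoas and 17.8 to 29.1 in soleus. It passed an adjusted p of 0.05 in soleus against both other muscles (0.0282 and 0.0311) at under 2-fold. Slc22a5, which takes carnitine into the cell, and Cpt1a, the form of the outer-membrane transferase known best from liver, were not called (0.75 and 0.29 in soleus against EDL). Cpt1b, the muscle form of that transferase, was listed at only 0.228 to 0.358 FPKM in EDL, 0.36 to 0.564 in psoas and 0.501 to 0.852 in soleus, from 14 to 80 counts per library. In the annotation 81.4% of its exon bases also belong to a readthrough gene on the same strand, Gm44502, and how reads in such bases were counted is not given, so the Cpt1b level is not interpreted here. With that limit, its soleus against EDL value was 1.19 ± 0.30 (adjusted p = 0.0198).

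Genes of beta-oxidation were higher in soleus than in EDL throughout. Of the 12 genes, 11 were called higher in soleus than in EDL and all 12 passed an adjusted p of 0.05, with log2 fold changes from 1.16 for Echs1 to 1.97 for Acadl. Against psoas, 9 of the 12 passed 0.05 and 1 was called (Acadm), and the soleus libraries lay above the psoas libraries for all 12. In psoas against EDL all 12 values were positive (0.40 to 1.31) with 0 calls, and Acads and Hadh passed 0.05. When read trimming entered the fit, 6 of the 11 calls were lost (Acadvl, Hadhb, Acaa2, Eci1, Eci2 and Decr1), and without EDL 1 or without EDL 2 the calls of Acadm, Hadh and Hadha remained. With the run proxy in the fit (trimmed, untrimmed at 44 days of age, and other untrimmed libraries), 10 of the 11 calls were lost and that of Acadl remained.

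The 4 acyl-CoA dehydrogenases take the first step of each cycle on chains of different length. Acadvl, for very long chains, had 38.8, 34.5 and 52.9 FPKM in EDL, 33.4, 67 and 78.5 in psoas and 119, 99.5, 127 and 109 in soleus, with 1.43 ± 0.28 for soleus against EDL (adjusted p = 0.0057). Acadl, for long chains, had 12, 14.4 and 39 FPKM in EDL, 44, 43.6 and 65.2 in psoas and 78.1, 99.5, 71 and 90.8 in soleus. EDL 3 was far above EDL 1 and EDL 2 and came near the lowest psoas libraries, and the soleus against EDL value was 1.97 ± 0.38 (adjusted p = 0.00531). Acadm, for medium chains, had 41.2, 49.5 and 50.9 FPKM in EDL, 49.2, 83.2 and 83.3 in psoas and 170.5, 128, 197 and 166 in soleus. Soleus stood clear of both other muscles, and Acadm was called against EDL (1.81 ± 0.24, adjusted p = 0.000655) and against psoas (1.2 ± 0.23, adjusted p = 0.00554). Acads, for short chains, had 5.4, 6.01 and 11.5 FPKM in EDL, 12.6, 21.5 and 22.4 in psoas and 28.5, 25.4, 28.8 and 23.4 in soleus. For Acads psoas lay close under soleus (0.49 ± 0.27, adjusted p = 0.269), and psoas against EDL gave 1.31 ± 0.30 (adjusted p = 0.0195).

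Hadha and Hadhb encode the 2 subunits of the mitochondrial trifunctional protein, which runs the later steps of the cycle on long chains. Hadha measured 16.5, 17.1 and 21.5 FPKM in EDL, 21.2, 30.6 and 36.5 in psoas and 56.4, 49.8, 65.5 and 53.8 in soleus. Hadhb measured 47.4, 41.3 and 52.8 FPKM in EDL, 36, 81.5 and 77.1 in psoas and 146, 116, 193 and 146 in soleus. For both genes soleus lay above all other libraries and psoas 1 was the lowest psoas library, and for Hadhb psoas 1 lay under every EDL library. The soleus against EDL values were 1.62 ± 0.22 (adjusted p = 0.00075) and 1.67 ± 0.30 (adjusted p = 0.00349). The ratio of Hadhb to Hadha ran from 1.7 to 2.95 over the 10 libraries, with overlap between the muscles.

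These 2 genes lie head to head on chromosome 5, with RefSeq start sites 273 bases apart, and their transcripts run in opposite directions. Of the sequence between the start sites, only an 85-base part near the Hadhb start is shown. Promoter windows of the RefSeq table (GRCm38.p6) were matched for 36 of the 46 members. The stretches below are the parts of the 250 bases before a start site that overlap no annotated exon, read 5′ to 3′ on the strand of the gene. Capitals mark GGGCGG (GC box letters) or its reverse complement CCGCCC in Hadhb and Acadl, AAGGTCA (letters bound by some nuclear receptors, here as TGACCTT) in Acadm, and TATAAA in Acacb. Hadhb and Acadl are shown for the shared promoter and for the largest change in the oxidation group, Acadm for its calls against both muscles, and Acacb because its psoas and soleus libraries overlapped.
Hadhb, chr5:30155163-30155247, plus strand: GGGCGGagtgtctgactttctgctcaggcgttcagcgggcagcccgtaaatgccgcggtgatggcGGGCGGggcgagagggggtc
Acadm, chr3:153944644-153944893, minus strand: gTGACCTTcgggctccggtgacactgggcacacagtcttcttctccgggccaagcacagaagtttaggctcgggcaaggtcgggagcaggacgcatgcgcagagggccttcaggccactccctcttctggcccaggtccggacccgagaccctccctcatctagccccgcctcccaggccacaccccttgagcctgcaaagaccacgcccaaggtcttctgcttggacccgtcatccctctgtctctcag
Acadl, chr1:66863310-66863559, minus strand: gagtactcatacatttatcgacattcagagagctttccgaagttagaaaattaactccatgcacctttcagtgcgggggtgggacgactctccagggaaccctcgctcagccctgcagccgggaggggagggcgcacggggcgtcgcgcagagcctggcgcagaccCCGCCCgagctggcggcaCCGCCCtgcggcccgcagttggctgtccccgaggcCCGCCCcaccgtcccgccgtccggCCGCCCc
Acacb, chr5:114165268-114165508, plus strand: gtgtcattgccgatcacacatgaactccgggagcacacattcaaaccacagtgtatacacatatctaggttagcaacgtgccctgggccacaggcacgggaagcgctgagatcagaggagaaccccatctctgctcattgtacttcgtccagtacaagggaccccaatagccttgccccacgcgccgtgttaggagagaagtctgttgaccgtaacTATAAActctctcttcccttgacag
Over the full 250 bases and both strands, GGGCGG was found for 22 of the 36 members, beside 35.4% of all 27025 genes with a window. A gene was counted when any of its windows held the letters. AAGGTCA was found for 3 members (Abhd5, Acadm and Acsl6), beside 4.70% of genes, and the longer TCAAGGTCA, which contains it, for Acsl6, beside 0.422%. TATAAA was found for Acacb alone, beside 14.3% of genes. A direct repeat of AGGTCA with 1 base between the copies was found for 0 members and for 0.0407% of genes. The Acacb window lies before a RefSeq start site inside the span of the gene given in the annotation. Genes with several start sites had several windows, and these matches describe letters in a window, not binding.

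The remaining oxidation genes had the same order of means. Acaa2, the thiolase that ends the cycle, had 65, 55.5 and 82.1 FPKM in EDL, 57.2, 114 and 155 in psoas and 262, 210.4, 220.4 and 242 in soleus (1.79 ± 0.30 for soleus against EDL, adjusted p = 0.00262). Hadh, the dehydrogenase for shorter hydroxyacyl chains, ranged over 15.1 to 20.5, 22.3 to 34.2 and 45.6 to 63.3 FPKM in EDL, psoas and soleus, 3 separate bands (1.6 ± 0.21, adjusted p = 0.000601). The auxiliary enzymes for unsaturated chains, Eci1, Eci2 and Decr1, were called in soleus against EDL at 1.54, 1.24 and 1.55. Echs1, the short-chain hydratase, was the member of the group without a call (1.16 ± 0.36, adjusted p = 0.0436), with 6.39 to 11 FPKM in EDL, 4.51 to 17.2 in psoas and 18.2 to 20.4 in soleus.

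The electron-transfer flavoprotein subunits Etfa and Etfb and the dehydrogenase Etfdh, which pass electrons from the acyl-CoA dehydrogenases to the respiratory chain, were all called in soleus against EDL (1.57, 1.25 and 1.45). All 3 passed an adjusted p of 0.05 against psoas, with values of 0.80, 0.90 and 0.87, and 0 of 3 were called there. Etfdh measured 12.6, 14.4 and 14.1 FPKM in EDL, 14.9, 22.3 and 24.1 in psoas and 39.6, 28.3, 45.5 and 35.9 in soleus, with no overlap between the 3 muscles. Etfb had the weakest call of the 30 (adjusted p = 0.00881), and 53.0% of its exon bases are shared with an annotated gene on the same strand, Gm45233.

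**Figure D3:**
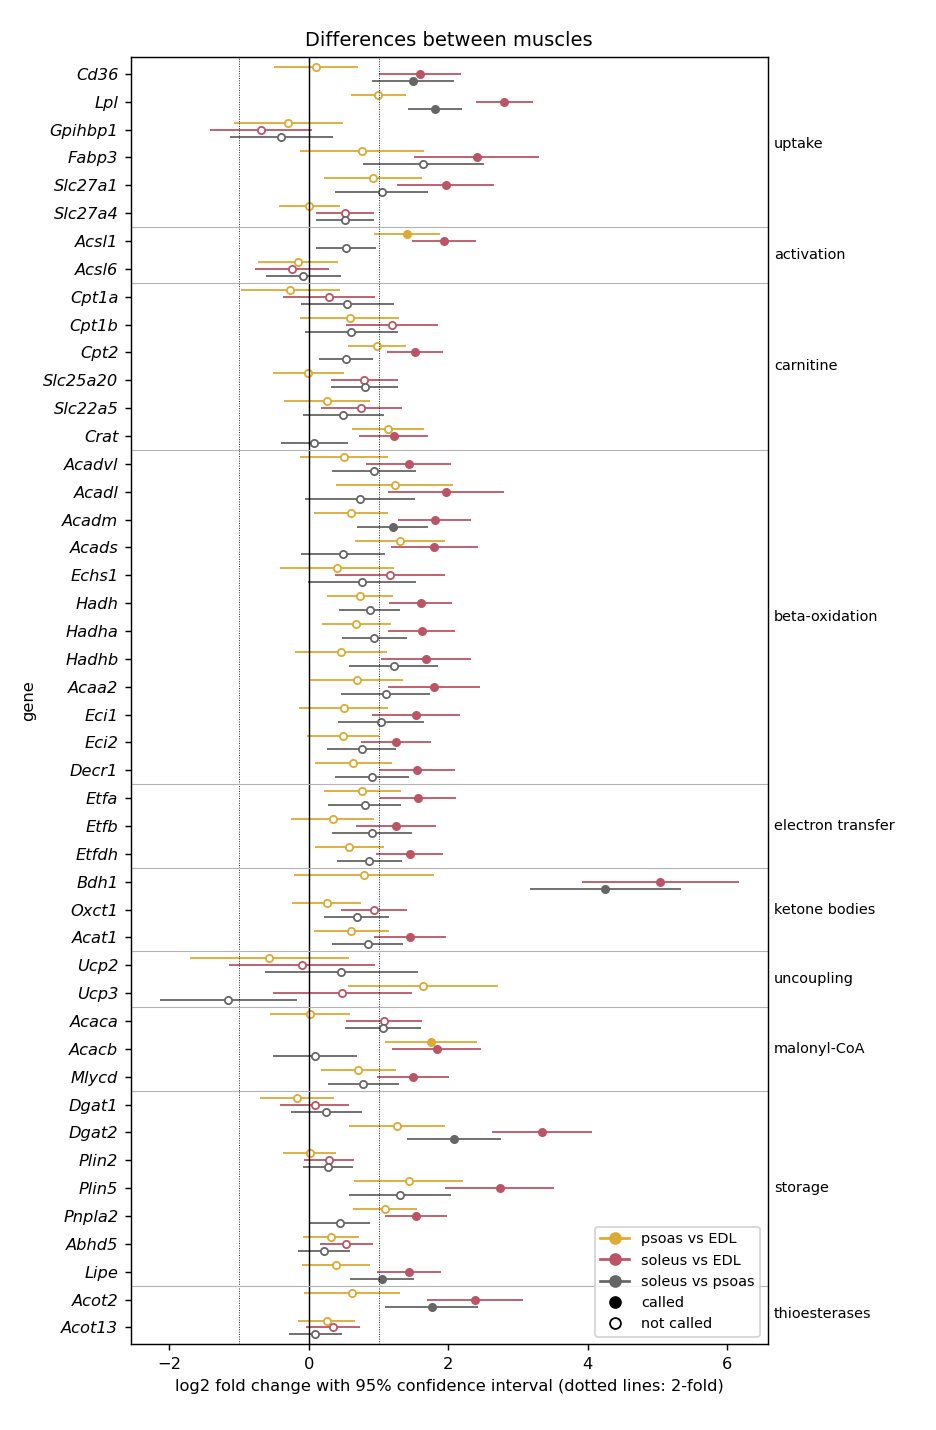
Points are log2 fold changes of the 46 genes from the fit over the 10 libraries, with 95% confidence intervals as lines, for psoas against EDL, soleus against EDL and soleus against psoas. Filled points were called (adjusted p under 0.01 and over 2-fold). The soleus against EDL points lie to the right of the 2-fold line for most genes, from the 12 oxidation genes (1.16 to 1.97) to Bdh1 at 5.04.

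Ketone body use held the member with the largest difference. Bdh1 (ENSMUSG00000046598, chr16:31422280-31458901) encodes beta-hydroxybutyrate dehydrogenase, which turns the main circulating ketone body into acetoacetate. It measured 1.39, 1.8 and 0.946 FPKM in EDL, 2.31, 3.69 and 1.22 in psoas and 56.2, 23.4, 71.3 and 32.5 in soleus. EDL and psoas overlapped at low levels, and the lowest soleus library was several times above the highest psoas library. The log2 fold change was 5.04 ± 0.51 against EDL (adjusted p = 0.000145) and 4.25 ± 0.49 against psoas (adjusted p = 0.000315), and both calls held under all 17 alternative settings. Soleus itself varied, with soleus 1 and soleus 3 at more than soleus 2 and soleus 4. Psoas against EDL was 0.79 ± 0.46 (adjusted p = 0.279).

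The 2 further enzymes of the pathway were abundant in every muscle. Oxct1, which loads acetoacetate with coenzyme A, ranked second of the 46 members in EDL and psoas. It ranged over 92.6 to 125 FPKM in EDL, 91.7 to 153 in psoas and 195 to 238 in soleus, a difference under 2-fold (0.94 ± 0.22 for soleus against EDL, adjusted p = 0.013). Acat1, the thiolase that splits acetoacetyl-CoA, ranged over 36.7 to 47.2, 43.5 to 75.7 and 95.6 to 146 FPKM and was called in soleus against EDL (1.45 ± 0.24, adjusted p = 0.00227).

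The uncoupling genes did not follow the soleus order. Ucp3, a mitochondrial carrier of muscle whose transcript is known to respond to fatty acids, measured 8.44, 10.2 and 4.99 FPKM in EDL, 35.3, 19.7 and 18.6 in psoas and 23.1, 6.14, 7.02 and 7.86 in soleus. All psoas libraries lay above all EDL libraries, 3 of the 4 soleus libraries lay at EDL level, and soleus 1 lay among the psoas libraries. Psoas against EDL gave 1.64 ± 0.49 (adjusted p = 0.0537) and soleus against psoas -1.16 ± 0.45 (adjusted p = 0.113), and neither was called. Without soleus 1 the soleus against psoas value was -1.81 and passed the call rule (adjusted p = 0.00425), and soleus against EDL went from 0.48 to -0.17. Psoas 1 and soleus 1, the highest library of each of those muscles, carry the same animal code. Ucp2 was low, at 0.0786 to 0.501 FPKM in EDL, 0.142 to 0.308 in psoas and 0.227 to 0.382 in soleus, with intervals that span 0 in the 3 comparisons.

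Among the genes that set malonyl-CoA, the inhibitor of the carnitine step, the psoas libraries overlapped those of soleus for Acacb alone. Acacb (ENSMUSG00000042010, chr5:114146535-114250761) encodes the acetyl-CoA carboxylase at the mitochondrial surface. It measured 2.71, 2.8 and 5.13 FPKM in EDL, 14.4, 7.77 and 13.5 in psoas and 12.6, 15.5, 10.3 and 12.2 in soleus. Psoas and soleus overlapped and both lay above EDL, with calls of 1.75 ± 0.30 for psoas (adjusted p = 0.00687) and 1.84 ± 0.29 for soleus (adjusted p = 0.00193). The psoas call was lost without EDL 1, EDL 2, psoas 1, psoas 3, soleus 1 or soleus 4 (adjusted p 0.012 to 0.037). The soleus against psoas difference was 0.083 with a 95% interval of -0.52 to 0.69. Acaca, the cytosolic carboxylase of fatty acid synthesis, was much lower and differed in pattern, at 1.02, 0.906 and 1.2 FPKM in EDL, 1.03, 0.702 and 1.43 in psoas and 1.7, 2.9, 2.2 and 2.01 in soleus. It passed 0.05 in soleus against EDL (1.08 ± 0.25, adjusted p = 0.0128) and against psoas (1.07 ± 0.25, adjusted p = 0.015), with EDL and psoas overlapping. Mlycd, the decarboxylase that removes malonyl-CoA, ranged over 10.1 to 15.6 FPKM in EDL, 14.1 to 24.8 in psoas and 28.6 to 41.3 in soleus and was called in soleus against EDL (1.49 ± 0.24, adjusted p = 0.00193).

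Lipid storage split into genes that were far higher in soleus and relatives with small differences that were not called. Dgat2 (ENSMUSG00000030747, chr7:99153658-99182719) encodes 1 of the enzymes of the last step of triglyceride synthesis. It measured 2.51, 2.27 and 3.26 FPKM in EDL, 5.63, 5.2 and 8.47 in psoas and 42.9, 23.9, 17.7 and 24.2 in soleus. The 3 muscles were separate, with soleus 1 highest. Its log2 fold change was 3.35 ± 0.33 for soleus against EDL (adjusted p = 0.000115) and 2.08 ± 0.31 for soleus against psoas (adjusted p = 0.00117), and for psoas against EDL it was 1.27 ± 0.31 (adjusted p = 0.0272). Dgat1, the other enzyme of that step, ranged over 1.88 to 1.95 FPKM in EDL, 1.32 to 2.01 in psoas and 1.61 to 2.79 in soleus, with 0.083 for soleus against EDL (95% interval -0.41 to 0.58).

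The lipid droplet coat showed the same split. Plin5, the perilipin that links droplets to mitochondria in oxidative tissue, had 4.29, 4.03 and 4.21 FPKM in EDL, 5.17, 11.8 and 16.9 in psoas and 35, 19.2, 27.2 and 29.8 in soleus. EDL was tight and low, the psoas libraries were spread between EDL and soleus, and the soleus against EDL value was 2.73 ± 0.36 (adjusted p = 0.000607). Plin2, a perilipin of most tissues, had 8.47, 7.39 and 7.35 FPKM in EDL, 7.27, 7.71 and 8.43 in psoas and 12.2, 8.47, 8.61 and 8.46 in soleus. Leaving soleus 1 aside, the Plin2 libraries lay between 7.27 and 8.61 FPKM, and soleus against EDL gave 0.29 ± 0.16 (adjusted p = 0.235).

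Of the lipolysis genes, Pnpla2 (adipose triglyceride lipase) and Lipe (hormone-sensitive lipase) were called in soleus against EDL, and Abhd5, the coactivator of the first, was not. Pnpla2 had 3.82, 5.26 and 3.56 FPKM in EDL, 10.3, 7.64 and 9.03 in psoas and 15, 9.74, 12.8 and 11.6 in soleus. Psoas and soleus overlapped and both lay above EDL, with 1.54 ± 0.20 for soleus against EDL (adjusted p = 0.000646) and 1.09 ± 0.21 for psoas against EDL (adjusted p = 0.0108). Lipe was low, with 0.782, 1.01 and 0.942 FPKM in EDL, 1.2, 0.991 and 1.4 in psoas and 2.73, 2.56, 2.86 and 1.75 in soleus. Its 4 soleus libraries lay above all others, and it was called against EDL (1.44 ± 0.21, adjusted p = 0.00122) and against psoas (1.05 ± 0.21, adjusted p = 0.00669). Abhd5 gave 0.53 ± 0.17 for soleus against EDL (adjusted p = 0.052).

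Acot2, a mitochondrial thioesterase that frees fatty acids from coenzyme A, had 3.46, 3.48 and 3.0 FPKM in EDL, 3.58, 4.19 and 7.64 in psoas and 21.3, 10.1, 17.5 and 20.3 in soleus. The muscles did not overlap, and it was called against EDL (2.38 ± 0.31, adjusted p = 0.00063) and against psoas (1.76 ± 0.31, adjusted p = 0.00302). Acot2 has a near-identical neighbour, Acot1, and how reads that match both were counted is not given in the sources used here, so the level of each gene is uncertain. Acot13 was among the most abundant members, at 58.1 to 81.8 FPKM in EDL, 72.6 to 93.1 in psoas and 69.7 to 97.1 in soleus, and was not called (0.35 for soleus against EDL, 95% interval -0.037 to 0.74).

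The place of psoas between the other 2 muscles differed from gene to gene. For the 30 members called between soleus and EDL, the psoas value was put on a log2 scale on which EDL is 0% and soleus 100%. The median was 40.6%, with 22 genes under the middle and 8 at or over it. Cd36 (6.53%) and Bdh1 (15.6%) were nearest to EDL, then Acot2 (26.0%) and Lipe (27.1%). Acacb (95.5%) and Crat (93.4%) were nearest to soleus, then Acads (72.6%), Acsl1 (72.6%), Pnpla2 (71.2%), Cpt2 (64.7%) and Acadl (62.5%). These positions are a description, since the genes were chosen by one of the differences that define the scale.

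Ratios of 2 related genes within a library do not depend on scaling between libraries. For 11 pairs and 3 comparisons, 33 exact two-sided permutation tests over libraries were run. With 3 against 3 libraries the smallest possible p is 0.1, and with 4 against 3 it is 0.0571, so no pair could pass 0.05, and the smallest Benjamini-Hochberg value was 0.171. The ratio of Dgat2 to Dgat1 was 1.33, 1.16 and 1.73 in EDL, 4.26, 2.59 and 4.75 in psoas and 26.6, 13, 6.33 and 13 in soleus, with no overlap. The ratio of Plin2 to Plin5 was 1.98, 1.83 and 1.75 in EDL, 1.41, 0.651 and 0.498 in psoas and 0.349, 0.442, 0.317 and 0.284 in soleus, so that Plin2 was the higher gene of the pair in EDL and Plin5 in soleus. The ratio of Acsl6 to Acsl1 was 0.266, 0.233 and 0.426 in EDL, 0.0894, 0.144 and 0.0775 in psoas and 0.0466, 0.0714, 0.109 and 0.0493 in soleus, with EDL apart from both.

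The ratio of Acaca to Acacb was lowest in psoas, at 0.0712, 0.0903 and 0.106, beside 0.135, 0.187, 0.214 and 0.165 in soleus and 0.375, 0.324 and 0.234 in EDL. The 3 muscles did not overlap for this ratio. The ratio of Ucp2 to Ucp3 did not overlap between psoas and either other muscle, though psoas 2 came close to EDL 3 and soleus 1, with exact permutation p-values of 0.10 and 0.0571, which are the smallest the design allows. Over the 11 pairs, libraries did not overlap for 7 in psoas against EDL, 7 in soleus against EDL and 4 in soleus against psoas. The share over other pairs of genes was not computed, so these counts have no background beside them. They include Cpt1a to Cpt1b in soleus against EDL, though the Cpt1b level is not interpreted here. Etfb to Etfa is included in both comparisons with EDL, with most Etfb exon bases shared with another gene.

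**Figure D4:**
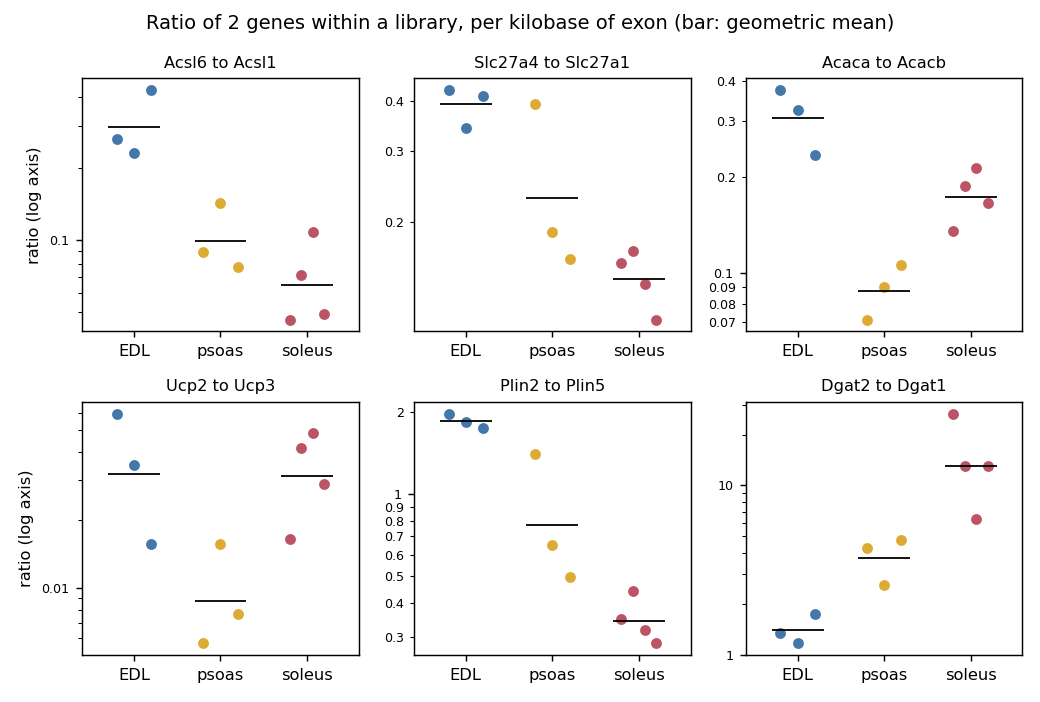
Each point is the ratio of 2 genes in 1 library, per kilobase of exon, on a log axis, and the bar is the geometric mean of the muscle. Dgat2 to Dgat1 rises from 1.39 in EDL to 13.0 in soleus, Plin2 to Plin5 falls from 1.85 to 0.343, and Acaca to Acacb is lowest in psoas at 0.0879.

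Other mitochondrial genes had smaller median differences. A list of 15 genes of the citrate cycle, respiratory chain, ATP synthase and mitochondrial import, with the outer-membrane channel gene Vdac1 and the mitochondrial transcription factor gene Tfam, had a median log2 fold change of 0.61 in soleus against EDL, with 1 of 15 called (Tomm20, an import receptor, 1.02 ± 0.18, adjusted p = 0.00383), and 3 under 0.05, beside 1.47 and 30 of 46 for the fatty acid genes. Between soleus and psoas the medians were 0.21 and 0.79, and in psoas against EDL 0.45 and 0.59. No test of the difference between these lists was made.

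Of a further list of 78 genes of the wider pathway, 71 were in the files. Of these, 15 were called higher in soleus than in EDL, 6 higher in soleus than in psoas and 0 in psoas against EDL, with 0 lower in each. The shares of all genes called were 3.59%, 2.99% and 0.540% higher and 2.18%, 2.71% and 1.57% lower. At an adjusted p under 0.05 the counts were 23 higher and 4 lower in soleus against EDL, 15 and 5 in soleus against psoas, and 7 and 2 in psoas against EDL. The shares of all genes by that rule were 9.79%, 7.75% and 4.76% higher and 8.80%, 6.78% and 6.34% lower. By adjusted p, the leading 5 in soleus against EDL were Agpat2 and Agpat3 (acyltransferases of phosphatidic acid synthesis) at 2.0 and 1.45, Acot1 at 3.08, the lipid droplet gene Cidea at 3.98 and Slc16a1, which carries lactate and ketone bodies, at 1.18. Cidea measured 0.44, 0.406 and 0.197 FPKM in EDL, 1.02, 0.455 and 0.381 in psoas and 8.53, 3.0, 7.72 and 4.31 in soleus. The leading 5 between soleus and psoas were Agpat2 (1.83), Cidea (3.13), Acot1 (2.43), the acetyl-CoA synthetase Acss2 (1.32) and the monoglyceride lipase Mgll (1.14).

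Fat cells also express several of these genes, and their markers were in part higher in soleus. Of 8 adipocyte markers 7 were in the files, with summed FPKM of 39.7 to 66.8 in EDL, 26.4 to 76.5 in psoas and 54.3 to 167 in soleus. In soleus against EDL 0 of the 7 were called, and Plin1, Cfd and Cidec passed 0.05. The median log2 fold change of the 7 was 1.94 there and 1.7 in soleus against psoas, where Lep passed 0.05. Adipoq had 1.5, 3.89 and 3.78 FPKM in EDL, 6.1, 2.2 and 0.769 in psoas and 12, 8.12, 18.6 and 4.59 in soleus. Soleus 3 and soleus 1 had the highest values of this marker. Within soleus, Dgat2 was 42.9 FPKM in soleus 1 and 17.7 in soleus 3, and 23.9 and 24.2 in soleus 2 and soleus 4, and Lpl lay between 152 and 161 FPKM in all 4. Lipe measured 2.73 FPKM in soleus 1, 2.56 in soleus 2, 2.86 in soleus 3 and 1.75 in soleus 4. Its soleus libraries had the same order as for Adipoq and Cfd, unlike those of Dgat2 and Lpl. The other markers (Plin1, Lep, Retn, Cidec and Fabp4) did not have that order either. An order over 4 libraries cannot tell which genes follow fat cells. Of the defining markers, Lep was at 0 counts in psoas 3. The part of fat cells in the differences was not tested.

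**Figure D5:**
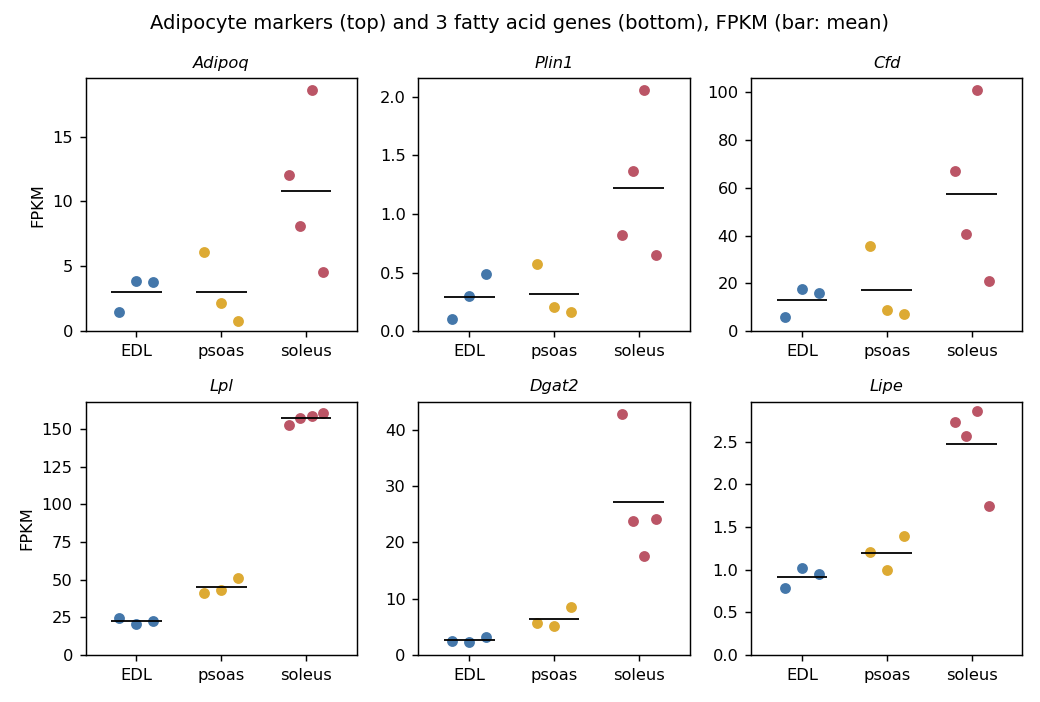
Points are FPKM per library for 3 adipocyte markers (top row) and 3 fatty acid genes that fat cells also express (bottom row), with the mean of each muscle as a bar and axes from 0. Within soleus, Adipoq lies between 4.59 and 18.6 FPKM, Dgat2 between 17.7 and 42.9, Lpl between 152 and 161, and Lipe between 1.75 and 2.86. Of these 3 genes, Lipe has its soleus libraries in the same order as Adipoq and Cfd, an order that the marker Plin1 does not have.

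Among markers of other cell types, those of tendon had many calls and the rest had few or none, though some of these also moved in 1 direction. All 8 macrophage markers had negative log2 fold changes in psoas against EDL (median -1.23) and in soleus against EDL (median -0.92). All 6 red cell genes had negative values in soleus against psoas (median -2.48). Summed FPKM of 10 endothelial markers was 35.3 to 62.8 in EDL, 30.5 to 33.7 in psoas and 38.3 to 45.2 in soleus, and that of 8 macrophage markers 60.1 to 172, 23.4 to 80.2 and 50.3 to 81.2. Both lists had 1 gene called lower in psoas than in EDL, 0 called higher in soleus against either muscle, and for macrophages 1 gene was called lower in soleus than in EDL. Tendon markers had 204 to 218 summed FPKM in EDL, 9.09 to 24.2 in psoas and 37.8 to 158 in soleus, with 6 of 6 called lower in psoas than in EDL and 5 of 6 higher in soleus than in psoas. Red cell genes (6) ranged over 4.45 to 79.8, 15.5 to 151 and 2.75 to 30.8 summed FPKM and 5 nerve genes over 11.7 to 18.6, 5.66 to 24.2 and 10.2 to 13.2. The part of these cells in the results was not tested.

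Libraries and read handling moved the counts of calls. EDL 3 was the highest EDL library for 27 of the 46 members, and psoas 1 was the lowest psoas library for 30, at a median of 0.706 times the other psoas libraries. Trimming, sex and depth differ between the same EDL and psoas libraries, and EDL 1 and EDL 2 are also those with the high 7S RNA share. Without EDL 1 the members called in soleus against EDL fell from 30 to 11 and without EDL 2 to 14, and without EDL 3 they were 31. Between soleus and psoas, the 7 calls became 3 without psoas 1, 3 without psoas 2 and 4 without soleus 3. In psoas against EDL the 2 calls became 6 without EDL 3 and 0 without EDL 1 or psoas 3. With read trimming as a covariate, 13 members were called in soleus against EDL, 4 in soleus against psoas and 6 in psoas against EDL, and with the run proxy 6, 3 and 6. Among untrimmed libraries alone (4 soleus against EDL 3), 28 of the 30 called members differed by over 2-fold. The median over the 46 members was 1.28. Of 4 soleus libraries against psoas 3, 5 of the 7 called members differed by over 2-fold, with a median of 0.52. Every soleus library lay above every library of the other muscle for these called members. Their sign was therefore fixed in advance and says nothing about trimming. For psoas against EDL the median was 0.53 among trimmed libraries (2 against 2) and 0.71 among untrimmed (1 against 1). All 4 soleus libraries were untrimmed, so trimmed libraries give no value for soleus.

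Calls of 4 members in soleus against EDL held under all 17 settings (Lpl, Acsl1, Bdh1 and Dgat2), and 19 of the 35 members under 0.05 stayed under 0.05 in all of them. The 11 calls that held when any single library was left out were Lpl, Acsl1, Cpt2, Acadm, Hadh, Hadha, Bdh1, Dgat2, Plin5, Pnpla2 and Acot2. The other 19 were lost without EDL 1, and all of these except Fabp3, Etfdh and Lipe also without EDL 2. Crat, Acadvl, Acadl, Hadhb, Eci1, Eci2 and Etfb were lost too without at least 1 of the soleus libraries. Between soleus and psoas the calls of Lpl and Bdh1 held under all settings and that of Dgat2 was lost with the run proxy alone. The calls of Cd36, Acadm, Lipe and Acot2 there were lost with read trimming in the fit and without psoas 1 or psoas 2, and those of Cd36, Acadm and Lipe also without psoas 3 or soleus 3. Exons shared with other annotated genes made up over 10% of exon bases for Cpt1b, Etfb, Acadvl (42.9%, Dvl2 on the opposite strand), Fabp3 (19.6%), Abhd5 (16.0%), Lipe (15.6%), Bdh1 (13.7%) and Oxct1 (12.6%), and the strand setting of the counting is not given in the sources used here.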

How the data were processed

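RNA of EDL, psoas and soleus from wild-type mice was sequenced by the authors as paired reads of 75 bases from rRNA-depleted stranded total RNA libraries. Per the methods and the labels, reads of 4 libraries were trimmed (Trimmomatic 0.32), all were aligned with TopHat2 2.1.1 to a GRCm38 build, and exon reads were counted per gene with Bioconductor tools. The deposited values are raw counts of 16112 genes, each of which had 10 or more reads in 3 or more libraries, and the tables held 0 columns of other series. The strand setting of the counting and the treatment of shared exons are not given in the sources used here.

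Groups came from the labels. Ensembl identifiers were matched to symbols and exon lengths with GENCODE M21 (GRCm38). Counts were tested with edgeR 4.0.16 (R 4.3.3, TMM, quasi-likelihood F-test, muscle as the only term), with Benjamini-Hochberg adjustment over all genes. FPKM is TMM-normalised CPM per kilobase of exon. DESeq2 1.42.0, limma 3.58.1 and leave-one-out fits served as alternatives, and the scripts were tested on simulated data. Gene ratios within a library were compared by exact permutation tests (scipy 1.17.1). Promoter windows came from the RefSeq table. The members, gene lists, pairs and motifs were chosen with earlier results of these data known. All 46 members are named, the wider pathway list by at most 5 called genes per comparison, and markers where a member is set beside them. The libraries of 1 muscle carry separate animal codes, and 3 of the 7 codes are shared between muscles, which the fit did not model. The methods name fewer mice than there are codes, and which codes could be 1 mouse is not given.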

Additional observations from a re-analysis of the deposited data

Results flagged for a closer look

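Each of the 46 genes was checked in the 4 soleus libraries for a value far from the other 3 with Dixon's ratio. Muscles with 3 libraries were not checked. For 2 of the 46 genes a library stood apart, a share close to the 1 in 20 or so that chance alone gives. Ucp3 measured 23.1 FPKM in soleus 1 and 6.14 to 7.86 in the other soleus libraries (Dixon ratio 0.899). Plin2 measured 12.2 FPKM in soleus 1 and 8.46 to 8.61 in the others (Dixon ratio 0.962). Both values belong to soleus 1, the only male library among those soleus libraries whose sex the labels give, from the same animal code as psoas 1, which had the highest Ucp3 of all libraries (35.3 FPKM). The part of sex, animal or fat content in these values was not tested.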

How the results depend on the processing

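The number of members called depended on the test and on single libraries. In psoas against EDL the 2 calls became 9 with DESeq2, 6 with read trimming or the run proxy in the fit, 4 with limma-voom and animal as a random effect (correlation 0.241), 10 at an adjusted p under 0.05 without a fold limit, and 0 to 6 when each library was left out. In soleus against EDL the 30 calls became 13 with read trimming and 6 with the run proxy in the fit, and ranged from 11 to 31 when each library was left out. In soleus against psoas the 7 calls became 14 with DESeq2, 4 with read trimming, 3 with the run proxy, 25 at an adjusted p under 0.05 without a fold limit, and 3 to 8 when each library was left out. DESeq2 size factors and a filter on low counts left 3 and 2, 30 and 30, and 7 and 7 calls. In these fits the calls of members were all in the higher direction, except Ucp3 in soleus against psoas without soleus 1 (1 call lower). Leaving out a library reduces the samples. In the fits with trimming or the run proxy, the effect of trimming is estimated from EDL and psoas together. Only 1 untrimmed EDL and 1 untrimmed psoas library are set there against the trimmed ones, which also enter the soleus differences. The run proxy also sets soleus 1 and soleus 3 apart from every other library. On the soleus side, soleus 2 and soleus 4 alone therefore set the differences in that fit. Other causes were not tested. With the replicate number as a block (replicate block), 0, 24 and 4 members were called in the 3 comparisons. Whether the numbers pair the libraries cannot be told from the labels. Deviations of same-numbered libraries correlated between -0.23 and 0.50, and psoas 1 with soleus 1 is the single same-numbered pair that shares an animal code. The value of 0.50 was that of EDL 3 with psoas 3. Same-numbered EDL and psoas libraries share age, sex and read trimming. The pair ratios had 0 differences under an adjusted p of 0.05 in the full design and 0 to 0 without a library. Those counts were fixed by the design, whose smallest p is above 0.05, and say nothing about stability.

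Over 138 log2 fold changes of members, 18 changed sign under some setting, 13 of them under a setting other than leaving out a library. The smallest adjusted p of these in the reported fit was 0.269. Of the 13, those in psoas against EDL were Slc27a4 (-0.019 with the filter), Slc25a20 (0.0099 with DESeq2 and 0.010 with its size factors), Acaca (-0.011 with the filter, -0.016 with trimming, -0.015 with the run proxy, -0.0022 with the replicate block) and Plin2 (-0.018 with the filter and -0.020 with limma-voom). In soleus against EDL they were Ucp2 (1.24 with trimming, 0.94 with the run proxy, 0.22 with the replicate block, 0.093 with limma-voom) and Dgat1 (-0.073 with the run proxy). In soleus against psoas they were Gpihbp1 (0.0087 with trimming, 0.0049 with the run proxy), Acsl6 (0.011 with the replicate block), Crat (-0.22 and -0.26), Acads (-0.10), Acacb (-0.32 and -0.18), Abhd5 (-0.092) and Acot13 (-0.020), with trimming given before the run proxy where both changed the sign.

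Leaving out 1 library each changed the sign of some small differences on the log2 scale, given here as the range over libraries left out. In psoas against EDL these were Cd36 (-0.075 to 0.25), Slc27a4 (-0.12 to 0.16), Acsl6 (-0.35 to 0.042), Slc25a20 (-0.18 to 0.15), Echs1 (-0.032 to 0.76), Acaca (-0.26 to 0.23) and Plin2 (-0.047 to 0.050). In soleus against EDL these were Cpt1a (-0.0038 to 0.48), Ucp2 (-0.52 to 0.34), Ucp3 (-0.17 to 0.71), Dgat1 (-0.16 to 0.17), the ratio of Ucp2 to Ucp3 (-0.54 to 0.41), the ratio of Lipe to Pnpla2 (-0.25 to 0.014) and the ratio of Hadhb to Hadha (-0.018 to 0.11). In soleus against psoas these were Acsl6 (-0.32 to 0.11), Acacb (-0.14 to 0.22), Acot13 (-0.012 to 0.20) and the ratio of Cpt1a to Cpt1b (-0.42 to 0.24). The sum of FPKM over members was added after seeing the data, because TPM moved with the 7S RNA share. Depth limits the lowest members, Ucp2 and Cpt1b, which had as few as 10 and 14 counts in a library.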
